A study of Homo sapiens with 6 samples.

Results

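The untreated baseline of the series was described from the 3 RNA-seq libraries whose genotype label was wild type (WT), of 6 libraries in all. The labels named the cells as HCT116, a human colorectal carcinoma line, grown in McCoy's 5a medium with fetal bovine serum and taken at passage 16 to 19. The 3 other libraries came from METTL3-KO cells made by CRISPR/Cas9 in the same line, and were not analysed here. The labels gave no treatment for the WT cells and did not say whether the 3 samples came from separate cultures, so the spread between them may be technical. The labels also did not say whether the WT cells were a clone or a bulk culture.

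A check of sex-chromosome transcripts against the karyotype known for HCT116 found that 3 of 3 WT libraries did not match the line named in the labels. The values below therefore describe the libraries labelled WT, and the name of the line was not established from the counts. KRT20 and LGALS4, which are commonly described as low or absent in HCT116, were detected, and VIM was near 0, with values given below. CDX1, commonly described in the same way, was detected at a low level (3.86 TPM on average). The identity of the line was not tested with these genes.

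The lining of the colon is a single-layered epithelium held together by E-cadherin junctions, claudins and desmosomes, and braced by the simple keratins. Stem cells at the crypt base respond to Wnt signals and give rise to absorptive colonocytes and to secretory cells such as mucus-producing goblet cells. Transcription factors of the CDX, HNF4, KLF and GATA families set this identity, and HOX genes record the position of a tissue along the body axis. Many enzymes and structural proteins exist as families of paralogs, and which member a cell transcribes is a mark of its type.

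Counts on genes were 27636254, 22850627 and 20936091 in WT1, WT2 and WT3. A count of 0 allowed up to 0.109, 0.131 and 0.143 counts per 1000000 counts on genes in these libraries (3 counts of the total, counting error only). All CPM values below are counts per 1000000 of a library size scaled by TMM (trimmed mean of M-values). WT3 stood apart from the other libraries. Over 9293 protein-coding genes with a mean of at least 10 CPM, its median log2 ratio to the mean of WT1 and WT2 went from -0.27 in the fifth of genes with the shortest transcripts to 0.27 in the fifth with the longest, while WT2 against WT1 stayed between -0.013 and -0.0048. At 276 of these genes (2.97%) the highest CPM was at least 1.5 times the lowest, against 2 genes when only WT1 and WT2 were compared. Pearson's r of log2 CPM over the detected genes was 0.997 for WT1 and WT2, 0.990 for WT1 and WT3, and 0.989 for WT2 and WT3 (across genes, which are not replicates).

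Of 56638 gene symbols, 13596 (24.0%) reached at least 1 CPM in every library, which is termed detected below, and 29002 (51.2%) had no count in any library. Of 19200 protein-coding genes matched to the annotation, 11638 (60.6%) were detected and 3663 (19.1%) had no count. CPM values compare a gene between libraries. Levels of different genes were compared in TPM, in which counts are divided by the length of the gene's exons and scaled to a sum of 1000000. At least 100 TPM in every library was reached by 1173 protein-coding genes.

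Nuclear protein-coding genes took 83.8% ± 0.760 of the counts (SD, n = 3) and the mitochondrial genome took 9.35% ± 0.403. Pseudogenes took 4.16% ± 0.289 and lncRNAs with a matched symbol took 0.614% ± 0.0320. The 10 most abundant genes of each library held 9.68% ± 0.430 of its counts, the top 100 held 22.1% ± 1.11 and the top 1000 held 50.7% ± 0.967. Ranked by mean CPM, 966 genes made up 50% of the total and 6025 made up 90%. Gene symbols were thus spread over a wide range, with a small set of respiratory, translational and cytoskeletal genes at the top.

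The 4 highest genes by TPM all lay on the mitochondrial chromosome and encode subunits of the respiratory chain. MT-CO2, a subunit of cytochrome c oxidase (positions 7586 to 8269, GRCh37), had 41664, 41035 and 38341 TPM in WT1, WT2 and WT3. MT-CO1, its catalytic subunit, had 37279, 38112 and 39188 TPM. The ranges of these genes overlapped, so their order was not beyond the spread. MT-CO3 followed at 30501 ± 1848 TPM and MT-ND4, a subunit of complex I, at 20720 ± 1201 TPM. By CPM the order was MT-CO1 first (25571 ± 1228 CPM), then MT-ND4, MT-CO2 and MT-CO3. The 13 mitochondrially encoded proteins summed to 187834 ± 962 TPM. The 85 matched nuclear-encoded subunits of the same respiratory complexes, of which 78 were detected, summed to 11951 ± 735 TPM.

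Genes for ribosomal proteins, the cytoskeleton and iron storage were among the most abundant nuclear protein-coding genes. TMSB10, which encodes the actin-binding peptide thymosin beta 10, had 6426 ± 768 TPM. FTL, the light chain of the iron store ferritin, had 5341 ± 513 TPM. The ranges of TMSB10 and FTL overlapped. FTL lay above RPS16 (4297 ± 487 TPM) with no overlap. With the canonical transcript as length their means were closer, at 4550 and 4374 TPM, and RPLP2 was at 4598 TPM. Ribosomal proteins filled most of the next places in rank, joined by S100A6, a calcium-binding protein (3540 ± 454 TPM), GAPDH, the glycolytic dehydrogenase (3259 ± 86.1 TPM), GNB2L1, the ribosomal scaffold RACK1 (2980 ± 168 TPM), and GPX2, the gastrointestinal glutathione peroxidase (2546 ± 239 TPM). With the canonical transcript as length, S100A6 was at 5886 TPM and KRT8 at 4514 TPM in place of 2063 TPM.

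Processed pseudogenes stood among the most abundant symbols. EEF1A1P5, named after the translation elongation factor EEF1A1, had 218941, 192346 and 164793 counts, while EEF1A1 itself had 27262, 22253 and 17940. RPL13AP5 had 4201 ± 700 CPM against 851 ± 144 CPM for RPL13A. RPL39P3 had 537 ± 101.9 CPM against 10.8 ± 1.80 CPM for RPL39. In each of these pairs the pseudogene was higher in 3 of 3 libraries. Of 4605 pseudogenes named after a protein-coding gene, 346 were detected, and 61 of these exceeded their parent in every library. A cytosolic ribosomal protein gene was the parent for 16 of the 61, and for 50 of the 346 detected. Reads of near-identical copies can be assigned to either copy or dropped by the authors' counting, so the levels of EEF1A1, RPL13A, RPL39, PPIA, RPLP0 and other parents of this kind are uncertain.

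The colorectal label was compared with lists of marker genes. Of 129 genes in 7 lists of intestinal and epithelial markers, 79 (61.2%) were detected and 16 (12.4%) had no count. Of 135 genes in 10 lists of other lineages, 23 (17.0%) were detected and 61 (45.2%) had no count. The corresponding shares over all matched protein-coding genes were 60.6% and 19.1%. The detected intestinal and epithelial genes were unevenly divided between the lists, with the structural genes and transcription factors near completely present and the markers of mature cell types mostly low.

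**Figure D1:**
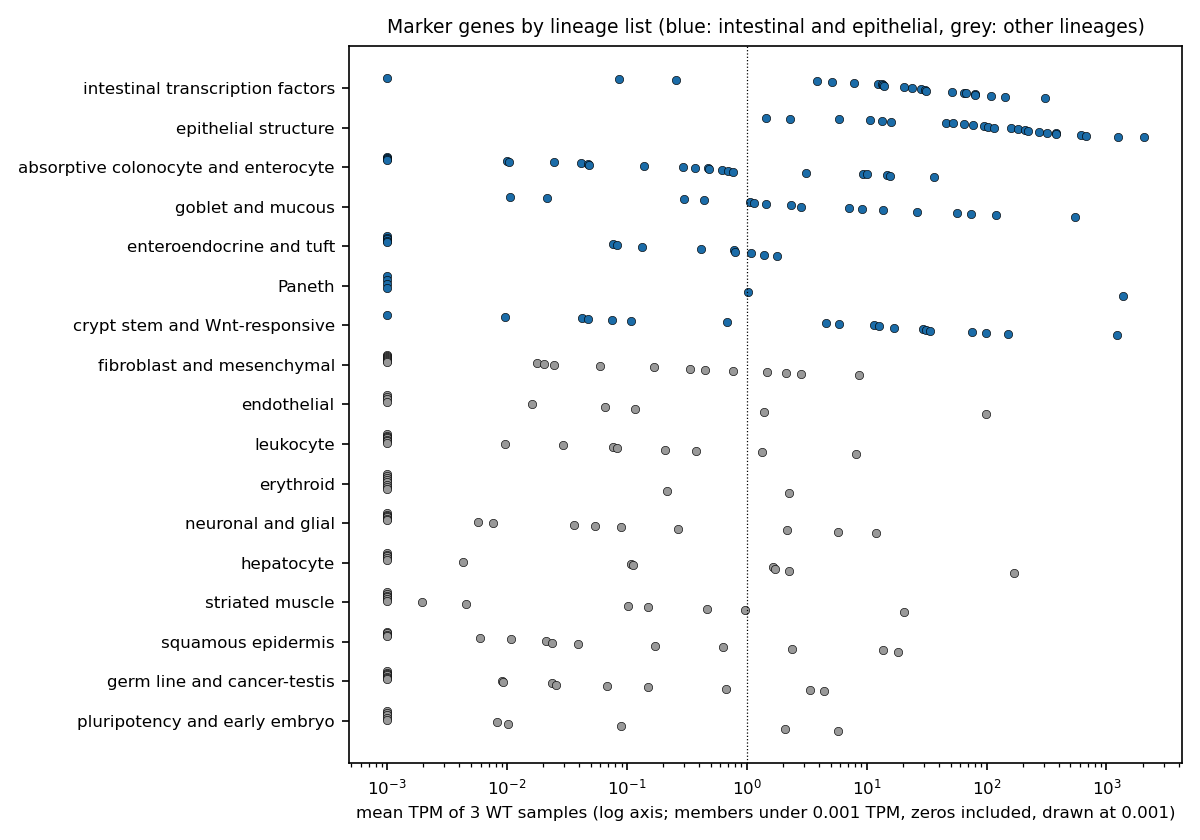
Each point is a marker gene, placed by its mean TPM over the 3 WT libraries (log axis, with genes under 0.001 TPM drawn at 0.001 and a dotted line at 1 TPM) in its list, blue for intestinal and epithelial lists and grey for other lineages. The epithelial structure genes lie between 1.44 and 2063 TPM, while most genes of the grey lists lie below 1 TPM.

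All 25 genes of the epithelial structure list were detected, at a summed 7329 ± 254 TPM. KRT8, the type II keratin of simple epithelia on chromosome 12 (53290971 to 53343738, minus strand), had 2137, 2168 and 1885 TPM in WT1, WT2 and WT3. KRT19, a type I keratin of simple epithelia, had 1242, 1364 and 1131 TPM, and KRT18, the usual partner of KRT8, had 699, 718 and 596 TPM. All 3 keratins were lowest in WT3. EPCAM, the epithelial cell adhesion molecule, had 620, 613 and 616 TPM, and 537, 534 and 474 CPM, lowest in WT3 by CPM. KRT20, a keratin typical of gastrointestinal epithelium, had 311, 350 and 300 TPM. CDH1, which encodes E-cadherin, had 197, 189 and 247 TPM, highest in WT3. CLDN4 (222 ± 3.65 TPM) and CLDN3 (184 ± 12.2 TPM), which encode tight-junction proteins, and VIL1 (95.2 ± 5.70 TPM), which encodes the brush-border actin bundler villin, were also present. The lowest members were KRT23 (2.29 ± 0.184 TPM) and CDH17, the liver-intestine cadherin (1.44 ± 0.293 TPM).

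Of 23 intestinal transcription factors and epithelial splicing factors, 20 were detected. KLF5, a factor of proliferating crypt epithelium, was highest at 290, 272 and 352 TPM. SOX9, a crypt factor, had 76.6, 73.3 and 91.0 TPM. HNF4A had 28.2, 28.6 and 36.7 TPM. These genes were highest in WT3. The splicing regulators ESRP1 (143 ± 24.1 TPM) and ESRP2 (79.5 ± 9.07 TPM), the ETS factor EHF (109 ± 34.6 TPM) and FOXA1 (67.9 ± 5.86 TPM) were also well above the threshold. The hindgut factors were much lower. CDX2 had 5.63, 5.67 and 3.95 TPM and CDX1 had 4.44, 3.86 and 3.28 TPM, with the lowest value of each in WT3. GATA4, a factor of the proximal gut, had no count.

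**Figure D2:**
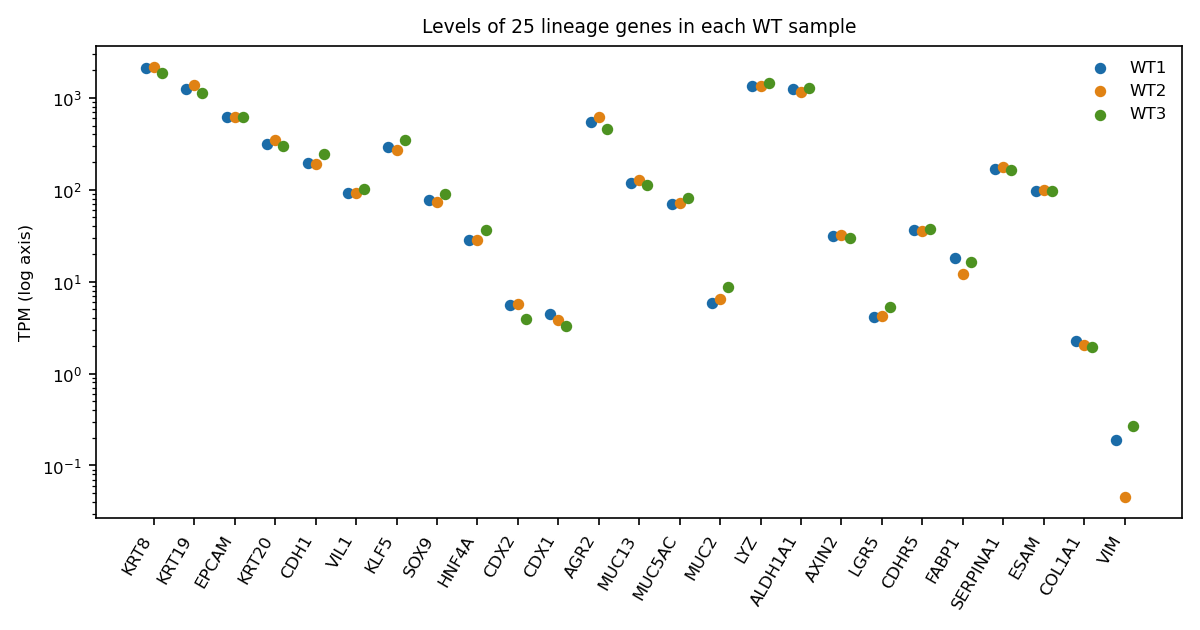
TPM (log axis) of 25 lineage genes in WT1, WT2 and WT3, each point 1 library. KRT8 and LYZ lie above 1000 TPM in every library, CDX1 and CDX2 lie between 3.28 and 5.67 TPM, and VIM lies below 1 TPM.

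Among 17 goblet and mucous genes, 11 (64.7%) were detected, near the 60.6% of all matched protein-coding genes, and none was without a count. AGR2, a disulfide isomerase needed for mucin folding, had 547, 622 and 462 TPM. The membrane mucin MUC13 had 119 ± 7.68 TPM and SPDEF, a goblet-cell factor, had 56.9 ± 1.48 TPM. MUC5AC, a secreted mucin best known from the stomach, had 74.3 ± 5.93 TPM. MUC2, the main secreted mucin of the colon, had 7.06 ± 1.53 TPM. The ranges of MUC5AC and MUC2 did not overlap. ATOH1, which directs the secretory fate, had 1.16 ± 0.291 TPM, and the goblet products CLCA1 and ZG16 had at most 1 count in any library.

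Of 24 genes of absorptive colonocytes and enterocytes, 6 were detected, led by CDHR5, a protocadherin of the brush border (36.7 ± 1.04 TPM). FABP1, a fatty acid-binding protein, had 15.5 ± 3.02 TPM, or 49.98 TPM with the canonical transcript as length, and CA2, a carbonic anhydrase, had 10.1 ± 0.993 TPM. The other detected members were SLC5A1, MALL and CEACAM7, at 14.8, 9.38 and 3.12 TPM on average. Several further products of mature colonocytes were near or at the limit. SLC26A3, the chloride exchanger of the colon, had 0, 1 and 1 counts, and AQP8 and MS4A12 had none. In the enteroendocrine and tuft cell list 3 of 14 genes were detected, and none exceeded 1.77 TPM on average. CHGB, GCG, NEUROD1, DCLK1 and GFI1B had no count.

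The Paneth cell list held 1 high gene. LYZ, which encodes lysozyme and is also made by myeloid cells and gastric glands, had 1335, 1341 and 1451 TPM. The Paneth defensins DEFA5 and DEFA6 and the lectin REG3A had no count, and PLA2G2A had 1.03 ± 0.139 TPM. PRSS2 also had no count and could not be matched to the annotation. LYZ was thus the only member of the list that was detected.

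Of 19 crypt stem and Wnt-responsive genes, 13 (68.4%) were detected, near the 60.6% of all matched protein-coding genes. ALDH1A1, a retinaldehyde dehydrogenase, was highest at 1245, 1161 and 1288 TPM. The Wnt feedback genes RNF43 (99.3 ± 14.2 TPM), ZNRF3 (33.6 ± 6.20 TPM) and AXIN2 (31.1 ± 1.19 TPM) were detected. For RNF43, 69.0% of the exon bases are shared with another gene. The crypt stem cell markers LGR5 and ASCL2 were lower, at 4.54 ± 0.626 and 5.83 ± 0.314 TPM. OLFM4 had 1, 0 and 0 counts, LEF1 had 5, 5 and 4 counts, and MSI1 had none.

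The mesenchymal list was mostly empty. Of 20 genes 4 were detected and 8 had no count. TAGLN, an actin-binding protein, was highest at 8.59 ± 0.890 TPM, then SNAI1 (2.81 ± 0.0533 TPM), COL1A1 (2.11 ± 0.159 TPM) and FN1 (1.47 ± 0.395 TPM). VIM, the intermediate filament of mesenchymal cells, had 5, 1 and 5 counts. CDH2, TWIST1, SNAI2, COL3A1, COL1A2, PDGFRA, DCN and THY1 had no count. Epithelial splicing factors and E-cadherin were measured at 79.5 to 211 TPM. CDH2, which encodes N-cadherin, and the mesenchymal factors TWIST1 and SNAI2 had no reads. The other mesenchymal factors of the list had reads, with SNAI1 at 2.81, ZEB1 at 0.451 and ZEB2 at 0.0203 TPM on average.

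In the remaining lists a few genes stood above a mostly empty background. SERPINA1, the secreted protease inhibitor alpha-1 antitrypsin, gave 168, 176 and 166 TPM of the 176 ± 5.04 TPM summed over 12 hepatocyte genes, and ALB, AFP, FGA, FGB and APOA2 had no count. ESAM, a junctional adhesion molecule, gave 96.3, 100.2 and 97.6 TPM of the 99.6 ± 2.02 TPM of the endothelial list, while CDH5, KDR, EMCN and ERG had no count. In the leukocyte list, CD14 had 8.16 ± 0.523 TPM, PTPRC, the pan-leukocyte marker CD45, had 0, 1 and 1 counts, and 7 of 15 genes had none. In the muscle list TNNI2, a fast-muscle troponin, had 20.4 ± 2.38 TPM and MYOD1 and MYOG had no count. The germ line list held 2 detected genes of 16, the cancer-testis antigens MAGEA3 (4.37 ± 0.544 TPM) and MAGEA6 (3.34 ± 1.06 TPM), which are near-identical copies. Of the 10 erythroid genes, 8 had no count, all 6 globins among them. In the squamous list 3 of 14 genes were detected, the keratins KRT13 (18.2 ± 1.53 TPM) and KRT10 (13.6 ± 2.11 TPM) and IVL, involucrin of the cornified envelope (2.37 ± 0.379 TPM), while KRT5, KRT6A, KRT1 and LOR had no count. In the neuronal and glial list 3 of 15 were detected, led by the myelin gene MBP at 11.97 TPM, and in the pluripotency list 2 of 10, TDGF1 at 5.71 TPM and POU5F1 at 2.09 TPM. PECAM1, CD24 and PRSS2 could not be matched to the annotation, and their counts of 0 are included in the numbers of genes without a count.

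The HOX genes were divided by cluster. Of 39 genes 26 (66.7%) were detected, beside 60.6% of all matched protein-coding genes. The HOX genes summed to 1436 ± 67.0 TPM. The HOXB cluster on chromosome 17 held 1107 ± 57.0 TPM of this, with 9 of 10 genes detected. HOXB9 was highest at 338, 323 and 370 TPM, followed by HOXB6 at 233, 234 and 288 TPM, and these ranges did not overlap. In the HOXA cluster 11 of 11 genes were detected, with a sum of 233 ± 8.49 TPM, and the posterior gene HOXA13 had 30.4 ± 3.88 TPM. The HOXC cluster summed to 93.5 ± 2.26 TPM, led by HOXC4 (59.7 ± 2.48 TPM). In the HOXD cluster only HOXD13 (2.37 ± 0.0885 TPM) was detected, and HOXD1, HOXD4 and HOXD11 had no count.

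Promoters of 4 genes are shown as examples of high and silent genes with many and with few CG dinucleotides, and they were chosen after their levels were seen. GSTP1 (leader of its family at 2080 ± 107 TPM) and HOXD11 (no count) have more CG than the median promoter. KRT20 (320 ± 26.3 TPM) and KRT5, a keratin of squamous epithelium (no count), have fewer. The sequences are 300 bases each, from 250 before to 50 after the start that RefSeq gives on GRCh38.p14, and capitals mark each CG, a motif that reads the same on both strands. They lie at chr11:67583562-67583861 (plus strand), chr2:176107030-176107329 (plus strand), chr17:40885193-40885492 (minus strand) and chr12:52520345-52520644 (minus strand).
GSTP1: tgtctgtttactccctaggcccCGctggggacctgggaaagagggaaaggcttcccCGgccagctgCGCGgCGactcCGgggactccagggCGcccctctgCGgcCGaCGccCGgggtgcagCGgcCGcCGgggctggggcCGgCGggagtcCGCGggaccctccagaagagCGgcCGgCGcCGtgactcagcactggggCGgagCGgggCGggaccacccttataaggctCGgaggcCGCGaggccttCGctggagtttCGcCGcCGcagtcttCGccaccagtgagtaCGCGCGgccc
HOXD11: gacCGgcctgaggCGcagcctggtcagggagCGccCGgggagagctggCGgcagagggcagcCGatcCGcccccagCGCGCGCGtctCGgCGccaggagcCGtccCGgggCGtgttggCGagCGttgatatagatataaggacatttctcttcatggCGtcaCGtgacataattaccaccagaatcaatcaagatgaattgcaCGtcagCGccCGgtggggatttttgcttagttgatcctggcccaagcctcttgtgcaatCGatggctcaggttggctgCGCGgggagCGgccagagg
KRT20: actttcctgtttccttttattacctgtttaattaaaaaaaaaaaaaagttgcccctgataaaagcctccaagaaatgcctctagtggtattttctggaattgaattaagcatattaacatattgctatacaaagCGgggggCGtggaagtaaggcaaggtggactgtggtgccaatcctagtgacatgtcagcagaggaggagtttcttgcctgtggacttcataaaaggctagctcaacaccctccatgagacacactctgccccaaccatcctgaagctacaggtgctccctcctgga
KRT5: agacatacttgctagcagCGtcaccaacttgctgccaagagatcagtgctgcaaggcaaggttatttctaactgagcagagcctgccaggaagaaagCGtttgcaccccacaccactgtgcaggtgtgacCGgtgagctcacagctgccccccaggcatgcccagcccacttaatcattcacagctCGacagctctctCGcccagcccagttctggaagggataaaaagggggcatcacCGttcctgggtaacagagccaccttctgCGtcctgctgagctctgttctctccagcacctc

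The GSTP1 promoter holds 36 CG and that of HOXD11 holds 27, against 2 in KRT20 and 7 in KRT5. GC content was 74.0% in GSTP1, 62.3% in HOXD11, 44% in KRT20 and 56.3% in KRT5. Over all 35116 promoters of the RefSeq table the median was 14 (quartiles 4 and 28), 32.0% held at least 25 CG, 39.3% held at most 7 and 96.0% held at least 1. A promoter was given for 15074 of 19187 nuclear protein-coding genes (78.6%), which is under the 80% set for a comparison of gene sets, so a comparison of promoter composition between silent and abundant genes was void and is not given.

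Paralog choice was described in 61 families with 251 measured members, of which 172 were detected and 32 had no count. Over all matched protein-coding genes, 60.6% were detected and 19.1% had no count. In 21 families 1 member held at least 90% of the family's summed TPM in every library, and in 12 only 1 member was detected. In 59 families the highest member on average was also above the runner-up in each library.

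In several families of energy metabolism 1 member held nearly all of the summed level. SLC2A1, the glucose transporter GLUT1, had 319, 316 and 373 TPM and held 99.9% of a family of 6, in which the runner-up SLC2A4 had 0.157 ± 0.0612 TPM. PKM, the pyruvate kinase of non-hepatic tissues, had 1783, 1737 and 1813 TPM, and the liver and erythrocyte form PKLR had 0.0123 TPM on average. GAPDH, PGK1, PDHA1, COX4I1 and COX6A1 each held 100% of their families to the precision given, and the tissue-restricted forms PGK2, PDHA2, COX4I2 and COX6A2 had no count. COX6A1P2, a pseudogene named after COX6A1, had 127 ± 16.2 CPM against 25.7 ± 4.01 CPM for COX6A1, so the level of COX6A1 is uncertain. ENO1 (2209 ± 70.2 TPM) held 97.3% of the enolases and ALDOA (988 ± 13.7 TPM) held 95.3% of the aldolases.

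Other metabolic families were shared. HK1, the housekeeping hexokinase, had 84.2, 80.9 and 92.6 TPM, which was 54.9% ± 4.01 of its family. HKDC1, a hexokinase-like gene, had 45.3 TPM on average and HK2 had 23.6, 23.1 and 32.9 TPM, highest in WT3. LDHB, the heart-type subunit of lactate dehydrogenase, lay above LDHA, the muscle-type subunit, per length, at 1543, 1382 and 1449 against 947, 957 and 1003 TPM. By CPM the order of the lactate dehydrogenases was the other way, with LDHA at 1171 ± 46.3 CPM and LDHB at 1005 ± 90.7 CPM. PFKP (129 ± 6.81 TPM) led the phosphofructokinases with 45.9%. The ADP/ATP carriers SLC25A6 (824 ± 19.3 TPM) and SLC25A5 (720 TPM) divided their family with 52.99% for the leader.

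In the cytoskeleton KRT8 held 96.2% ± 0.413 of 11 type II keratins, 7 of which had no count. The type I keratins were shared by KRT19 (54.6%), KRT18 and KRT20. ACTB had 1720, 1652 and 1752 TPM, 54.5% of the actins, and ACTG1 had 1424 TPM on average. Muscle forms of actin were near or at 0. MYH9 (191 ± 21.5 TPM) and MYH14 (181 ± 12.7 TPM), heavy chains of nonmuscle myosin II, were nearly level, with MYH9 above in each library. LMNA (298 ± 3.61 TPM) held 61.9% of the lamins. TUBA1B (124 ± 5.25 TPM) led the alpha tubulins, but not in every library, and TUBA1C led with the canonical transcript as length.

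In adhesion CDH1 held 94.96% of the classical cadherins, with CDH3, P-cadherin, at 10.3 ± 0.393 TPM. CTNNA1 (343 ± 25.3 TPM) was the only alpha catenin detected. ITGB4, the hemidesmosome integrin, led 8 beta integrins with 37.9%, and ITGB1 led with the canonical transcript as length. The same change of length put PKP4 above PKP3 among the plakophilins and PRDX1 above PRDX5 among the peroxiredoxins. The leader differed in these 4 families, alpha tubulins included, with the canonical transcript as length. It differed in 5 with the longest transcript, where the tropomyosins were led by TPM3 in place of TPM2 and the annexins by ANXA5 in place of ANXA2. By CPM it differed in 6, the lactate dehydrogenases and RAS genes among them. ANXA2P2, a pseudogene named after ANXA2, had 800 ± 79.1 CPM against 744 ± 77.9 CPM for ANXA2, so the share of ANXA2 is uncertain.

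Among signalling genes the GTPases HRAS and NRAS had close levels by CPM, at 83.5 ± 9.50 and 87.2 ± 6.54 CPM. Per length HRAS stood at 143 ± 6.92 TPM and NRAS at 46.7 ± 6.73 TPM. ARAF (62.8 ± 4.37 TPM) held 69.9% of the RAF genes, AKT2 (111 ± 7.36 TPM) held 70.3% of the AKT kinases and PIK3CB (22.98 ± 2.46 TPM) held 74.8% of the 3 measured PI3K catalytic subunits. ERBB3 (112 ± 15.2 TPM) and ERBB2 (106 TPM) were not separated in every library, EGFR had 17.7, 18.2 and 28.4 TPM, highest in WT3, and ERBB4 had 1, 0 and 0 counts.

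Among cell cycle and growth genes, MYC held 96.3% of its family at 79.9, 74.6 and 81.0 TPM, and MYCN had no count. CCND1, cyclin D1, had 71.5 ± 7.13 TPM, CCND3 had 25.1 TPM and CCND2 had no count. CDK4 (120 ± 2.57 TPM) held 86.7% beside CDK6 (18.5 TPM). TOP2A, the topoisomerase of dividing cells, had 195, 180 and 253 TPM and held 85.8% beside TOP2B. DNMT1, the maintenance DNA methyltransferase, had 35.7 ± 4.56 TPM.

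Among stress genes GSTP1 had 2157, 2126 and 1958 TPM, 69.5% of 12 glutathione S-transferases, and GSTM1 had no count. FTL held 86.2% of the ferritins. FTH1, the heavy chain, had 857 ± 54.9 TPM, with 63.2% of its exon bases shared with another gene. The pseudogenes FTH1P20, FTH1P11, FTH1P2, FTH1P8 and FTH1P7 had 291, 141, 134, 122 and 106 CPM on average, against 593 CPM for FTH1. The share of FTL is therefore uncertain. HSPA8 (1487 ± 208 TPM) led the HSP70 chaperones with 67.5% and HSP90AB1 (1126 ± 27.0 TPM) the cytosolic HSP90 genes with 77.7%. LGALS4, a galectin of the gut epithelium, had 2167, 2130 and 2058 TPM and held 88.6% of 7 galectins.

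Values in the translation families were limited by shared sequence. EIF4A2 (536 ± 19.5 TPM) held 99.0% of the EIF4A helicases. EIF4A1, usually an abundant initiation factor, had 115, 104 and 80 counts, and 47.4% of its exon bases are shared with another gene, whose reads the authors' counting leaves out. EIF4A1P10, a pseudogene named after it, had 3433, 3124 and 2424 counts, above EIF4A1 in every library, so the share of EIF4A2 is uncertain. RPL39 held 100% of its pair, yet RPL39P3 had more counts than RPL39 in every library. EEF1A1 (229 ± 6.87 TPM) held 73.5% beside EEF1A2 (82.9 ± 0.773 TPM), or 88.1% with the canonical transcript as length, without the counts on EEF1A1P5.

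Lineage factors of other tissues appeared in the GATA family. GATA2, a factor best known from blood progenitors, had 87.3, 83.0 and 92.3 TPM and held 82.4%, above GATA6 (13.6 ± 0.573 TPM), the intestinal member. Of 6 GATA genes 3 were detected. HNF4A held 57.0% beside HNF4G (23.7 ± 4.74 TPM), and CDX2 held 56.7% of the CDX genes.

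Several tissue-specific gene classes were mostly without a count, where 19.1% of all matched protein-coding genes had none. Of 392 matched olfactory receptor genes, 367 (93.6%) had no count and 1 was detected, OR51E1 at 2.75 ± 0.252 TPM. Of 38 beta defensins, 37 had no count and DEFB1, the constitutive epithelial member, had 9.71 ± 1.71 TPM. Of 94 keratin-associated protein genes, 84 had no count and KRTAP5-1 was highest at 15.7 ± 1.40 TPM. Of 17 type I interferon genes, 14 had no count and IFNE, the epithelial interferon, was detected at 24.2, 27.3 and 33.5 TPM. Late cornified envelope genes had no count at 16 of 18. Replication-dependent histone genes, whose main transcripts lack a poly(A) tail, were mostly below the threshold and not mostly without a count. Of 64 such genes, 16 had no count and 5 were detected, with HIST1H2BK highest at 76.9 ± 4.91 TPM. Whether the lack of a tail lowered their counts was not tested.

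On the autosomes 98 runs of 5 or more neighbouring protein-coding genes without a count held 992 genes. In all, 3663 matched protein-coding genes had no count, so most of them lay outside these runs. Whether the runs were more than a random gene order gives was not tested. The longest, with 58 genes, ran from OR4B1 to OR5M8 on chromosome 11 (48238362 to 56258846, GRCh37) and was made mainly of olfactory receptors, with TRIM genes and FOLH1. A run of 45 genes on chromosome 1 (247687979 to 248845629) also consisted mainly of olfactory receptors. Another of 45 genes on chromosome 8 (6782219 to 8046331) held the defensins. Genes in such clusters include near-identical copies, whose reads the authors' counting drops, so a count of 0 there does not exclude transcripts.

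The ribosomal protein and proteasome classes were close to complete. Of 83 matched cytosolic ribosomal protein genes 77 were detected, at a summed 81533 ± 6713 TPM, lowest in WT3 (85428, 85390 and 73782 TPM). Of 76 mitochondrial ribosomal protein genes 74 were detected (6097 ± 296 TPM), and of 39 proteasome genes 37 (5852 ± 200 TPM). The ZNF genes were less complete, with 372 of 506 (73.5%) detected and a median level of 3.96 TPM. The clustered protocadherins, which diversify neurons, were mostly not detected, with 2 of 50 above the threshold. The authors' counting left out reads that fell on several genes. Whether this lowered the protocadherin counts was not tested.

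All 8 mismatch repair genes and all 21 colorectal cancer driver genes were detected. MSH6, a mismatch recognition protein, had 18.7 ± 1.25 TPM. Of the drivers, BAX (175 ± 14.3 TPM), RNF43, SOX9 and MYC were highest. APC had 8.45, 7.93 and 14.2 TPM, highest in WT3, and SMAD4 was lowest at 4.29 ± 0.383 TPM. Gene-level counts carry no information on mutations. METTL3, the m6A methyltransferase subunit that the study removed in the other cells, had 841, 682 and 623 counts, or 34.9 ± 1.52 TPM.

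All 17 genes commonly used as references were detected. YWHAZ varied least, with a coefficient of variation of 0.438% in CPM, followed by TBP (1.82%), PGK1 (2.23%) and GAPDH (4.77%). RPL13A (17.0%), PPIA (16.0%) and POLR2A (12.1%) varied most. The median over 9293 protein-coding genes with at least 10 CPM was 7.84%. The ribosomal gene RPL13A was lowest in WT3, with 1039, 1056 and 865 TPM, and POLR2A, a longer gene, was highest there, with 70.5, 66.2 and 93.9 TPM.

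The 5 protein-coding genes with the largest ratio of highest to lowest CPM at a mean of at least 10 CPM were NBEAL1, ZBED6, AGO2, POLR2J and SLC7A11. NBEAL1 had 10.7, 12.1 and 31.9 CPM, a ratio of 2.98. AGO2, the slicer of RNA interference, had 52.8, 50.5 and 127.6 CPM, and SLC7A11, the cystine transporter, had 116, 90.4 and 204 CPM. POLR2J, a subunit of RNA polymerase II, had 53.8, 53.5 and 23.1 CPM. WT3 was the extreme library in each, low for POLR2J and high for the others. Of the 276 genes at a ratio of at least 1.5, WT3 was highest at 224 and lowest at 50.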

How the data were processed

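RNA was extracted with Trizol and libraries were made with the Illumina TruSeq RNA kit. Per the submitters' processing notes and the paper's methods, the authors aligned reads to hg19/GRCh37 with TopHat2 2.0.11 and counted them with HTSeq. What they deposited is a raw count for each gene symbol. The strand setting is not given in the sources used here, so a gene and its antisense partner cannot be told apart. HTSeq left out reads on several genes (9.22 to 10.3% of uniquely aligned reads) and reads aligned to several places, and 7.99 to 10.5% fell on no gene. CPM used TMM library sizes (edgeR 4.0.16 in R 4.3.3). For TPM, counts were divided by the union of exons of GENCODE 44 basic transcripts on GRCh37, a length chosen after the annotated lengths were seen, over 35711 of 56638 symbols (1839 through an older symbol), which held 97.9 to 98.1% of counts. Errors are SDs over 3 WT samples. No group was compared and no p-value computed. Scripts were tested on simulated data.

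The text names members of fixed lists and families (the highest and those without a count first), the 15 highest genes by TPM or CPM, the 5 most variable, the 3 longest silent runs and the highest gene of each symbol class. Pseudogenes and promoters were chosen after their values were seen. Some members of the lists are not reported here. Members and lists were chosen with earlier results of these data known. Alternatives were other thresholds, DESeq2 1.42.0 size factors, other gene lengths and leaving out each library. The depth was 20936091 to 27636254 counts per library.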

Additional observations from a re-analysis of the deposited data

How the results depend on the processing

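No paired analysis was possible because the result comes from no test and 1 group is described. Detected genes numbered 12606 to 14900 under the other thresholds and scalings. Leaving out 1 library gave 13726 to 13760 detected genes, 30207 to 30449 genes without a count, 21.7 to 22.8% of counts in the top 100 genes and 931 to 985 genes for 50% of the counts. The 21 families led at 90% stayed at 21 without any 1 library. Detected members then numbered 79 to 81 in the intestinal and epithelial lists and 23 to 24 in the others. The share of the top 100 genes was 15.3% without mitochondrially encoded genes and 43.0% as a share of TPM, where 200 genes made up 50%. Levels of leading genes moved by more than 1 SD with gene length. With the longest transcript KRT8 was at 3368, RPL3 at 2193, HSPA8 at 1775, GAPDH at 3157, LGALS4 at 1801, HRAS at 101 and GATA2 at 93.8 TPM. With the canonical transcript, an alternative chosen after seeing the data, KRT8 was at 4514, CTNNA1 at 306, RPL3 at 2981, GAPDH at 3531, LGALS4 at 1805, FTL at 4550 and HRAS at 153 TPM. The order of libraries can also depend on the scale: GAPDH was lowest in WT3 by CPM (2335, 2409 and 2192) and highest there by TPM (3175, 3255 and 3347). Genes near 0.1 CPM rest on about 3 counts.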

Other observations

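Of 55 matched cytochrome P450 genes, 18 (32.7%) were detected, beside 60.6% of all matched protein-coding genes. CYP3A5, a drug-metabolizing enzyme, was highest with 76.2, 76.6 and 91.7 TPM, or 233 TPM with the canonical transcript as length, while the hepatic CYP3A4 had 4, 2 and 4 counts. Of 332 solute carrier genes, 192 (57.8%) were detected and 52 (15.7%) had no count. These shares were near the 60.6% and 19.1% over all matched protein-coding genes. The mitochondrial ADP/ATP carriers SLC25A6 and SLC25A5 led this class, followed by SLC1A5, a glutamine carrier, with 387, 361 and 423 TPM. Of 90 orphan G protein-coupled receptor genes, 24 (26.7%) were detected, with GPR56, an adhesion receptor, highest at 125 ± 10.99 TPM.

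Of 23 genes for cell surface antigens, 21 (91.3%) were detected, beside 60.6% of all matched protein-coding genes. The list summed to 1668 ± 120 TPM. EPCAM was highest, and the complement regulator CD46 (176 ± 21.7 TPM), the receptor MET (128 ± 32.3 TPM), ERBB3, the transferrin receptor TFRC and ERBB2 followed. The carcinoembryonic antigen genes CEACAM6 and CEACAM5 had 64.4 ± 2.49 and 13.4 ± 0.970 TPM. The intestinal antigens GPA33 (2.27 ± 0.351 TPM), CDH17 (1.44 ± 0.293 TPM) and GUCY2C (10, 1 and 6 counts) were low, and CD274, which encodes PD-L1, had 0.830 ± 0.257 TPM. Of 24 bitter taste receptor genes, 3 (12.5%) were detected, TAS2R14 highest at 5.30 ± 0.542 TPM.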
